A study of Mus musculus with 6 samples.

Results

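Divergent promoter pairs are places where RNA starts on the minus strand and, a short distance downstream in coordinate, on the plus strand, so that the transcripts run away from each other. Such pairs were examined in Ba/F3 cells, a murine pro-B cell line in which introduced kinases are often studied. Of 19162 promoters with at least 1 CPM (tags scaled to a common library total) in 3 or more of the 6 libraries, 2616 (13.7%) formed 1308 pairs. A pair was an adjacent minus-strand and plus-strand promoter in sorted order, the second starting 0 to 500 bp after the end of the first. The members were thus chosen by their CPM, strand and position, so their levels and gaps are given as a description. Each promoter belonged to at most 1 pair.

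The libraries were made by cap analysis of gene expression (CAGE), which reads the capped 5′ ends of RNA and so counts transcripts by their start and strand, with no dependence on transcript length. Cells of 1 group carried FLT3-ITD, the internal tandem duplication of the receptor tyrosine kinase FLT3 (n = 3). Cells of the other carried FLT3-ITD and, per the titles, D835Y, a substitution in the activation loop of the kinase (n = 3, called the double mutant). All 6 were grown in serum-supplemented RPMI-1640, their titles add "Co" with no explanation, and neither a parental line without FLT3-ITD nor the number of clones is named. A second label numbers the substituted position differently in each double-mutant sample, so the titles were followed. No label says that the 3 libraries of a group are separate cultures, and p-values measure the spread between libraries, which may be technical. Means are given ± SD over the 3 libraries of a group.

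Most mammalian promoters start transcription in both directions from a shared stretch of open chromatin. In some pairs both directions make stable RNA, as where genes stand head to head, and in others a gene's RNA leaves in its own direction while the opposite direction gives a short upstream antisense RNA that is usually degraded quickly. Active enhancers also start RNA in both directions, at low levels. The deposited tables name peaks by mm9 position alone, no gene or sequence of that build was used here, and each pair is called by its position. Whether pro-B markers were present could not be checked for the same reason.

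The libraries held 5884258 to 13977941 tags, so 1 tag was worth 0.0715 to 0.170 CPM. Across the tested promoters, log2 levels correlated at 0.980 to 0.988 within groups and at 0.945 to 0.962 between them, as a description of libraries over promoters. The shallowest library was FLT3-ITD replicate 2 and the deepest was double-mutant replicate 2. In every library at least 1297 of the 1308 pairs had tags on both sides, and 1075 to 1227 had at least 1 CPM on both.

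The sides of a pair stood close together. The median gap was 119 bp (quartiles 65 and 208 bp), and 1088 pairs (83.2%) had a gap of at most 250 bp. In bins of 50 bp the pairs numbered 248, 302, 257, 149 and 131 up to 250 bp, and then 79, 54, 41, 23 and 24. The bin from 50 to 100 bp was thus the fullest, and numbers fell with distance beyond it. From the outer edge of the minus peak to that of the plus peak, the median span was 212 bp. Only 337 convergent neighbours, a plus-strand promoter followed by a minus-strand one, lay within 500 bp, of 3379 at any gap, against 1308 of 3381 divergent neighbours (38.7%).

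**Figure D1:**
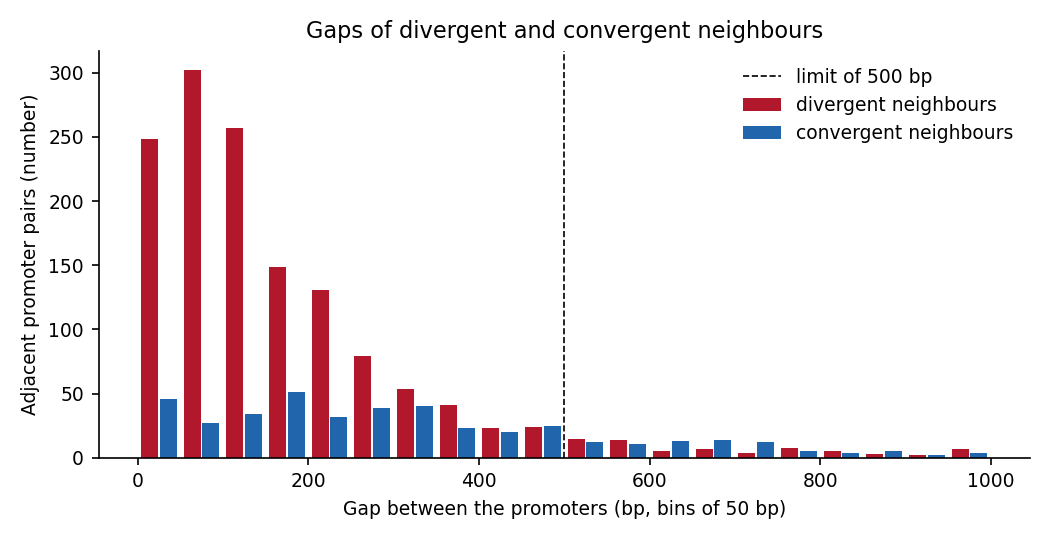
Number of adjacent promoter pairs (vertical axis) by the gap between them in bins of 50 bp (horizontal axis), for divergent and convergent neighbours among the 19162 tested promoters; the dashed line marks the limit of 500 bp. Divergent neighbours are most numerous at 50 to 100 bp (302 pairs) and drop to 24 in the last bin inside the limit.

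Few pairs lay near the limit. The widest gaps inside it, 499 and 498 bp, were both on chromosome 11. At the first, the minus side at 120434229 to 120434235 had a mean of 0.860 CPM over the 6 libraries and the plus side at 120434734 to 120434784 had 4.68 CPM. At the second, the minus side at 101413151 to 101413207 had 27.3 CPM and the plus side at 101413705 to 101413740 had 1.45 CPM. The nearest outside it were a pair of chromosome 3 with a gap of 502 bp, with 1.57 CPM on the minus side (68808374 to 68808389) and 179 CPM on the plus side (68808891 to 68808943), and a pair of chromosome 4 with a gap of 503 bp, with 14.3 CPM (3865501 to 3865548) and 211 CPM (3866051 to 3866079). Levels just inside and just outside the limit therefore ranged widely.

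Member peaks were somewhat wider than the other tested promoters, with a median width of 44 bp (quartiles 28 and 63) against 34 bp (18 and 56). The stronger side of a pair, the one with the higher mean level, had a median width of 49.5 bp and the weaker side 40 bp. In 628 pairs neither side had an adjacent same-strand tested promoter within 500 bp, so that these were single starts facing away from each other. In the remaining pairs at least 1 side belonged to a series of starts.

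Most pairs were uneven. The stronger side had a median of 22 CPM (quartiles 7.09 and 63.3) and the weaker side 2.51 CPM (quartiles 1.39 and 5.71), and the median fold between them was 5.04 (quartiles 2.10 and 15.9). In 301 pairs the sides were within 2-fold of each other, in 577 they were 2 to 10-fold apart and in 430 more than 10-fold. Neither strand dominated, since the plus side was stronger in 640 pairs and the minus side in 668. The log2 levels of the sides were nearly unrelated across the 1308 pairs (Pearson's r = -0.03, a description of points that share libraries and a level minimum).

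The unevenness grew with the level of the stronger side, while the weaker side stayed low. Pairs were grouped here by the stronger side, which also enters the fold, so growth of the fold is partly set by the grouping. Where the stronger side was under 5 CPM (235 pairs), the median fold was 1.6, a range that the level minimum narrows. At 5 to 20 CPM (389 pairs) it was 3.74, at 20 to 100 CPM (467 pairs) 9.86 and at 100 CPM or more (217 pairs) 49.1. Over those classes the weaker side moved only from a median of 1.32 to 2.44, 3.93 and 4.77 CPM. The gap made little difference, with median folds of 3.75 to 7.29 over the bins of 50 bp. A weaker side of 10 CPM or more was seen in 208 pairs, and of 100 CPM or more in 12.

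**Figure D2:**
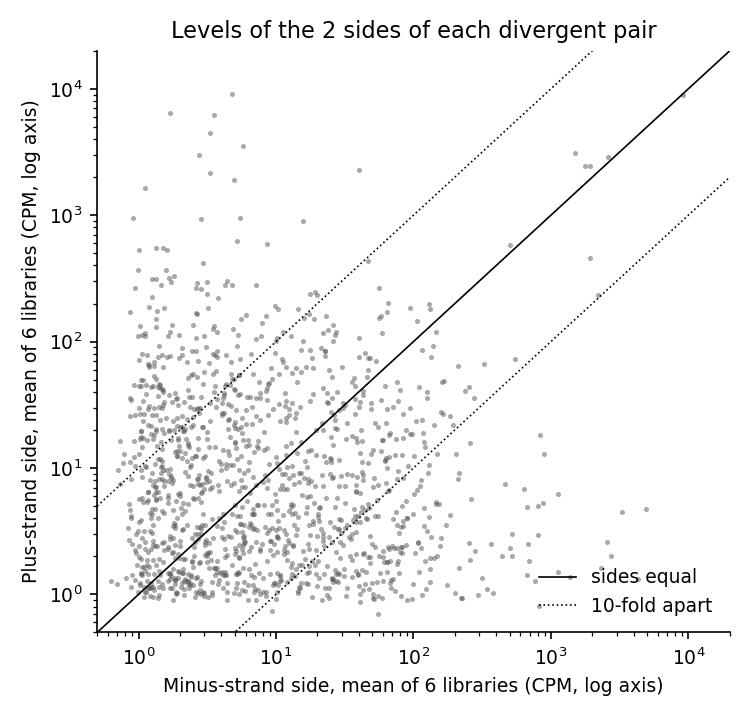
Mean level of the minus-strand side (horizontal axis) and the plus-strand side (vertical axis) of each of the 1308 pairs over the 6 libraries, in CPM on log axes; the solid line marks equal sides and the dotted lines sides 10-fold apart. Points spread along both axes, and only a few pairs, on chromosome 13, exceed 1000 CPM on both sides.

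A few pairs held most of the CPM of the members, and the matching concentration over all tested promoters is not given here. The 10 most active pairs held 35.7% of the CPM of all members and the 100 most active 73.7%. A side reached 1000 CPM in 26 pairs, which held 55.7%, with 14 of them on chromosome 13 and 3 on chromosome 3, and gaps of 56 to 446 bp. In 18 of the 26 the weaker side was under 10 CPM. In 5 pairs, all on chromosome 13, both sides reached 1000 CPM.

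The most active pair was also the most even of the 284 pairs with at least 2 CPM on the weaker side and 50 CPM on the stronger. It lay on chromosome 13 with a gap of 228 bp. Its minus side at 21902059 to 21902069 had 8825, 9263 and 10650.5 CPM in FLT3-ITD replicates 1, 2 and 3, and 8936, 8372 and 9066 CPM in the double mutant. The plus side, at 21902297 to 21902311, had 8935, 9067 and 9763 CPM, and 8181, 8686 and 8771 CPM. The sides were thus within 1.03-fold of each other on average, the groups overlapped on the minus side and were apart on the plus side, and neither side passed the test of the groups described below (log2 changes -0.12 and -0.11, limma adjusted p = 0.45 and 0.44). The next most even pair, also on chromosome 13 (gap 211 bp), had 2309 to 2804 CPM on its minus side at 22134820 to 22134847 and 2609.5 to 3167 CPM on its plus side at 22135058 to 22135077, over the 6 libraries. The sources used here do not tell how tags that fit several places in the genome were counted, and the levels of any start with near-identical copies are uncertain to that extent.

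Other very active pairs with similar gaps were extremely uneven. On chromosome 3 (gap 212 bp), the plus side at 96049453 to 96049469 had 9810.2, 10012 and 9895 CPM in FLT3-ITD and 7722, 9072 and 7677 CPM in the double mutant. The minus side at 96049229 to 96049241 had 6.34, 7.31 and 7.02 CPM, and 3.10, 2.00 and 2.87 CPM. The plus side was on average 1892 times the minus side. The groups were apart on both sides, and the minus side fell (log2 change -1.12, SE 0.18, limma adjusted p = 0.00067). The plus side did not pass with CPM as deposited (-0.28, SE 0.11, adjusted p = 0.067), but did after TMM scaling (0.042), with edgeR (0.0499) or DESeq2 (0.014) and without double-mutant replicate 2 (0.0064). A second chromosome 3 pair (gap 222 bp) had 5006 to 7841 CPM on its plus side at 96073618 to 96073626 and 0.787 to 2.63 CPM on its minus side at 96073358 to 96073396, a fold of 3823, the widest of all pairs. On chromosome 13 (gap 257 bp), the plus side at 23663251 to 23663261 had 3427 to 5830.5 CPM and the minus side at 23662985 to 23662994 had 2.52 to 4.78 CPM.

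The stronger side was mostly the same in every library. In 1117 pairs (85.4%) the same side was higher in 6 of 6 libraries. The side that was higher differed between the groups, in 3 of 3 libraries each, in 8 pairs, 4 turning to the plus side and 4 to the minus side. The share over all adjacent pairs was not counted, and nothing is read from this number. One of the 8 pairs, on chromosome 7 (gap 201 bp) and picked after its values were seen, had 7.51, 7.14 and 8.51 CPM in FLT3-ITD and 5.45, 5.65 and 4.84 CPM in the double mutant on its minus side at 134352086 to 134352157. Its plus side at 134352358 to 134352401 had 5.46, 4.76 and 5.18 CPM, and 8.22, 8.01 and 6.33 CPM. The groups did not overlap on either side, the minus side fell (log2 change -0.46, SE 0.16, limma adjusted p = 0.045) and the plus side was at the threshold (0.47, SE 0.16, adjusted p = 0.051). On chromosome 15 (gap 91 bp) the groups were also apart on both sides. There the minus side had means of 3.13 ± 0.39 and 4.36 ± 0.75 CPM (limma adjusted p = 0.15). The plus side had 4.34 ± 0.85 and 2.68 ± 0.41 CPM (limma adjusted p = 0.056), and the balance passed the test described below (limma adjusted p = 0.026). The rest of the 8 were less clear. On chromosomes 1 (gap 250 bp), 2 (gap 40 bp) and 12 (gaps 8 and 37 bp) neither a side nor the balance passed the tests described below. On chromosomes 2 (gap 142 bp) and 11 (gap 119 bp) a side entered the tested set through the double mutant alone.

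The question the series poses is which promoters the double mutant uses more or less than FLT3-ITD alone. Each tested promoter was compared with limma on log2(CPM + 1), double mutant minus FLT3-ITD, and p-values were adjusted over all 19162 (threshold 0.05). This scale understates the change of low promoters, and so of many weaker sides. Of the 2616 members, 528 changed (20.2%), where the share over all tested promoters was 24.4%. Of these, 367 rose (14%, with 14.1% over all tested) and 161 fell (6.15%, with 10.4% over all tested). The groups did not overlap at 1011 members (38.6%), against 41.8% of all tested promoters. The median log2 change of the members was 0.10, and 0.05 over all tested promoters. A rise of at least 1 (log2) passed the test in 43 members (1.64%), against 3.19% of all tested promoters, and a fall of that size in 11 (0.42%), against 2.38%.

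The excess of rises over falls depended on scaling. Risen members made up 69.5% of those that changed with CPM as deposited, 59.3% after TMM scaling (324 against 222) and 57.4% with DESeq2 (205 against 152). Over all tested promoters, 2695 rose and 1985 fell with CPM as deposited. The matching split over all tested promoters after TMM scaling or with DESeq2 is not given here. Without FLT3-ITD replicate 2 the count of changed members was 311 and that of risen ones 219. Fallen members numbered 102, 92 and 97 without FLT3-ITD replicate 1, 2 or 3, and 248 without double-mutant replicate 2.

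Both strengths of side took part. Of the stronger sides, 190 rose and 115 fell (23.3% changed), and of the weaker sides 177 rose and 46 fell (17%). After TMM scaling the numbers were 165 and 156 for the stronger sides and 159 and 66 for the weaker sides. With edgeR on the recovered tags they were 161 and 147, and 146 and 64, so that rises outnumbered falls by more among the weaker sides under each of these settings, a difference that was not tested. A member can enter through 1 group alone: 51 sides had at least 1 CPM in each double-mutant library and less in each FLT3-ITD library, of which 41 rose, and 6 had the opposite pattern, of which 5 fell. Such sides had to differ, and nothing is read from their number. They remain in the counts of risen and fallen sides above, and in the counts of pairs and chromosomes below. The larger excess of rises among the weaker sides is therefore a description, and nothing is concluded from it.

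Where both sides changed, they mostly moved together, as did adjacent promoters of any arrangement. Both rose in 57 pairs and both fell in 12 (69 pairs, 5.28%), where among all 19142 adjacent pairs of tested promoters 4.39% rose together and 3.02% fell together (7.41%). The sides changed in opposite directions in 5 pairs, against 1.21% of all adjacent pairs. In numbers, 1419 of all adjacent pairs changed in the same direction and 231 in opposite directions. Sides that entered the tested set through 1 group alone were not left out of any of these counts. The excess of joint rises over joint falls is thus a description. In 380 pairs (29.1%, with 31.6% of all adjacent pairs) only 1 side passed, the stronger one in 231 and the weaker one in 149, and in 854 neither did. Across the 1308 pairs the log2 changes of the sides correlated at r = 0.42, a description of points that share the same 6 libraries. Within 500 bp, r was 0.63 across same-strand neighbours and 0.47 across convergent ones. It was 0.17 across adjacent pairs over 5000 bp apart. The 69 became 35 with DESeq2, and 42, 30, 43 and 40 without FLT3-ITD replicate 1, 2 or 3 or double-mutant replicate 1.

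**Figure D3:**
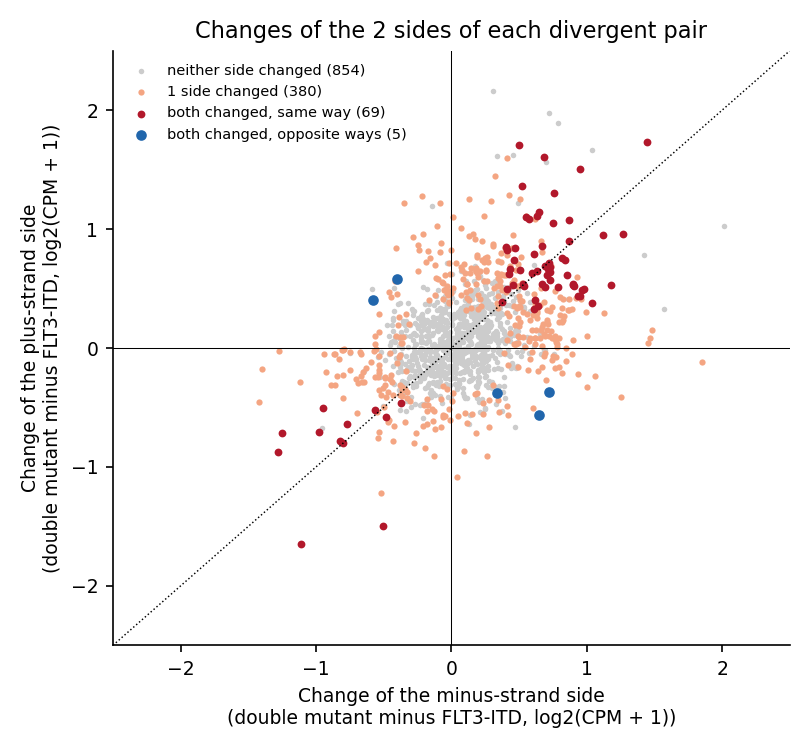
Log2 change of the minus-strand side (horizontal axis) and of the plus-strand side (vertical axis) of each pair, with positive values for higher levels in the double mutant, as differences of log2(CPM + 1), coloured by which sides passed limma's adjusted p of 0.05; 2 pairs lie outside the axes. Most pairs with both sides changed lie at the upper right (57 rose together) and 5 lie where the signs differ.

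Pairs named as rising together were the 4 with the largest mean rise among 29 that had at least 5 CPM on both sides in the double mutant and groups apart on both sides. The largest was on chromosome 19 (gap 130 bp). Its minus side at 5912771 to 5912822 had 68.6, 68.3 and 66.3 CPM in FLT3-ITD and 97.9, 99.9 and 91.7 CPM in the double mutant (log2 change 0.50, SE 0.10, limma adjusted p = 0.0035). On the plus side, at 5912952 to 5912954, the values were 6.05, 3.91 and 6.40 CPM, and 22.3, 16.2 and 21.4 CPM (log2 change 1.71, SE 0.19, adjusted p = 3.6e-05). Every double-mutant library was above every FLT3-ITD library on both sides, as the choice of these pairs required. The weaker side rose by more. The minus side was 12.4 times the plus side in FLT3-ITD and 4.84 times in the double mutant (test of the balance, described further on, limma adjusted p = 0.0074).

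On chromosome 2 (gap 219 bp), the plus side at 163245503 to 163245566 had 1.46, 2.38 and 1.93 CPM in FLT3-ITD and 6.21, 5.29 and 8.21 CPM in the double mutant (log2 change 1.37, SE 0.20, limma adjusted p = 0.00035). The minus side, at 163245244 to 163245284, rose as well, with means of 9.06 ± 0.65 and 13.5 ± 1.4 CPM (adjusted p = 0.018). The balance test gave an adjusted p of 0.042, which was 0.11 to 0.14 without FLT3-ITD replicate 1 or 3 or double-mutant replicate 1 or 3. The call on the minus side was lost with DESeq2 (adjusted p = 0.083), without FLT3-ITD replicate 2 (adjusted p = 0.073) or 3 (0.051) and without double-mutant replicate 3 (0.058).

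On chromosome 11 (gap 57 bp), the minus side at 34597352 to 34597402 had 75.3, 73.8 and 82.5 CPM in FLT3-ITD and 157, 96.3 and 118 CPM in the double mutant (log2 change 0.65, SE 0.15, limma adjusted p = 0.0091). The plus side, at 34597459 to 34597492, also rose, with means of 3.55 ± 1.09 and 8.90 ± 0.77 CPM (adjusted p = 0.00088). Beside it lay another pair (gap 119 bp), picked after its values were seen, whose minus side at 34596624 to 34596637 had 0 tags in all FLT3-ITD libraries and 62 tags over the 3 double-mutant libraries (1.59, 1.57 and 2.08 CPM). That side entered the tested set through the double mutant alone and had to differ, so no test is given. On the plus side at 34596756 to 34596793 the means were 1.13 ± 0.52 and 1.15 ± 0.13 CPM. The last named pair, also on chromosome 11 (gap 240 bp), had a stronger minus side at 16851086 to 16851134 that rose, with means of 7.26 ± 1.56 and 17.6 ± 2.6 CPM (adjusted p = 0.00040). The plus side at 16851374 to 16851420 had means of 3.57 ± 0.48 and 5.61 ± 0.81 CPM (adjusted p = 0.040), a call that was lost after TMM scaling (adjusted p = 0.057), with edgeR (0.053) or DESeq2 (0.17) and without any one library other than double-mutant replicate 2 (0.053 to 0.15).

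The 4 pairs with the largest joint fall came from 7 that had at least 5 CPM on both sides in FLT3-ITD and groups apart on both sides, and 3 of them lay on chromosome 13 among the very active starts. The pair with a gap of 140 bp had 7371, 8533 and 7321 CPM in FLT3-ITD and 4929, 3968 and 5348 CPM in the double mutant on its plus side at 23622952 to 23622957 (log2 change -0.71, SE 0.13, limma adjusted p = 0.0014). The minus side, at 23622786 to 23622812, had 5.07, 4.93 and 6.14 CPM, and 1.93, 1.72 and 1.38 CPM (log2 change -1.25, SE 0.18, adjusted p = 0.00029). The sides differed 1770-fold in level. That both fell, with groups apart on both sides, was required by the choice of these pairs.

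The pair with a gap of 193 bp showed the reverse arrangement, with the minus side strong. That side, at 23654245 to 23654261, had 5736, 6019 and 5465 CPM in FLT3-ITD and 3842, 4449 and 3876 CPM in the double mutant (log2 change -0.50, SE 0.11, limma adjusted p = 0.0043). The plus side, at 23654454 to 23654510, fell too, with means of 7.40 ± 0.53 and 1.99 ± 0.43 CPM (log2 change -1.50, SE 0.18, adjusted p = 6.8e-05). The balance test passed here (adjusted p = 0.014, or 0.059 without FLT3-ITD replicate 3) but not in the pair with a gap of 140 bp (0.15). In the third pair, with a gap of 205 bp, the sides were alike in level. Its minus side at 23666068 to 23666098 fell, with means of 2558 ± 329 and 1316 ± 56 CPM (log2 change -0.95, limma adjusted p = 7.7e-05), as did its plus side at 23666303 to 23666318, with means of 2877 ± 246 and 2039 ± 287 CPM (-0.50, adjusted p = 0.0097). The call on that plus side was lost without FLT3-ITD replicate 2 (adjusted p = 0.059).

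The remaining pair, on chromosome 17 (gap 300 bp), was of moderate level and even. Its minus side at 25864309 to 25864371 had 15.9, 17.3 and 16.4 CPM in FLT3-ITD and 8.89, 10.6 and 8.40 CPM in the double mutant (log2 change -0.77, SE 0.14, limma adjusted p = 0.0017). The plus side, at 25864671 to 25864742, fell alongside, with means of 19.5 ± 1.7 and 12.1 ± 1.1 CPM (-0.64, SE 0.14, adjusted p = 0.0043).

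**Figure D4:**
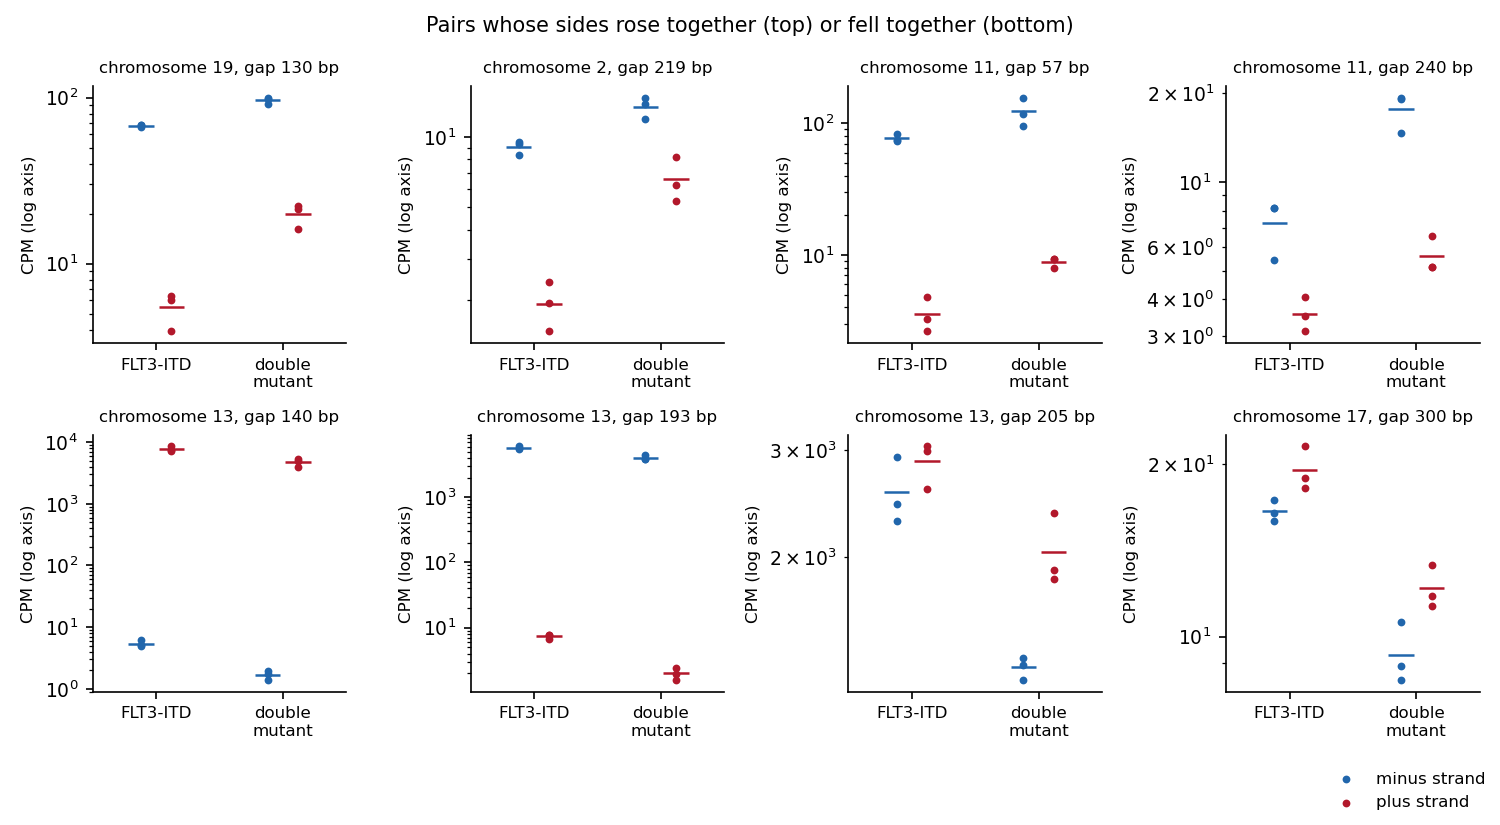
CPM on a log axis of the minus-strand and plus-strand sides in each of the 3 FLT3-ITD and 3 double-mutant libraries (points) with the mean of each group (bars), for the 4 pairs with the largest joint rise and the 4 with the largest joint fall. In each panel the groups are apart on both sides, as the choice of these pairs required. The distance between the sides is wide in the chromosome 13 pairs with gaps of 140 and 193 bp and narrow in the chromosome 17 pair.

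In 5 pairs the sides changed in opposite directions. On chromosome 6 (gap 147 bp), the plus side at 91466000 to 91466052 had 310.1, 252 and 296 CPM in FLT3-ITD and 193, 182 and 204 CPM in the double mutant, and fell (log2 change -0.56, SE 0.11, limma adjusted p = 0.0031). The minus side at 91465790 to 91465853 had 14.1, 13.9 and 12.2 CPM, and 20.1, 25.8 and 19.3 CPM, and rose (0.65, SE 0.15, adjusted p = 0.0062). The groups did not overlap on either side, the plus side went from 21.3 to 8.89 times the minus side, and both calls held with each library left out in turn and after TMM scaling. The balance changed by -1.21 (SE 0.22, limma adjusted p = 0.0050).

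On chromosome 9 (gap 122 bp), a weak minus side at 98463999 to 98464039 had 0.390, 0.510 and 0.702 CPM in FLT3-ITD and 1.59, 1.72 and 1.29 CPM in the double mutant (15 against 56 tags in all). That side reached 1 CPM in the double mutant alone, so it entered the tested set only by being higher there, and its passing the test is no support for the opposite directions of this pair. Beside it the plus side at 98464161 to 98464194 fell, with means of 50.5 ± 1.2 and 39.0 ± 3.0 CPM (limma adjusted p = 0.030). On the same chromosome (gap 72 bp), the strong minus side at 22193557 to 22193640 fell, with means of 96.1 ± 8.8 and 72.6 ± 8.2 CPM (limma adjusted p = 0.028), while the plus side at 22193712 to 22193760 rose, with means of 2.83 ± 0.55 and 4.75 ± 1.03 CPM (adjusted p = 0.044). In this second pair the strong side lost and the weak side gained, as on chromosome 6.

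The chromosome 1 pair (gap 95 bp) went the other way. Its strong plus side at 95651529 to 95651606 rose, with means of 27.0 ± 3.7 and 35.8 ± 2.3 CPM (limma adjusted p = 0.039), and its weak minus side at 95651388 to 95651434 fell, with means of 2.52 ± 0.44 and 1.34 ± 0.12 CPM (adjusted p = 0.035). On chromosome 13 (gap 224 bp) both sides were strong. The minus side at 21879110 to 21879125 had 1583, 1613 and 1875 CPM in FLT3-ITD and 2003, 2311 and 2098 CPM in the double mutant (0.34, adjusted p = 0.040), and the plus side at 21879349 to 21879363 had 492, 512 and 547 CPM, and 400.1, 385 and 406 CPM (-0.38, adjusted p = 0.015).

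The count of such pairs was small and unstable. It was 3 after TMM scaling and 2 with edgeR, and 2, 1 and 2 without FLT3-ITD replicates 1, 2 and 3, and 1, 10 and 2 without double-mutant replicates 1, 2 and 3. For the pairs other than that of chromosome 6, at least 1 side lost its call with at least 1 library left out (adjusted p up to 0.17). After TMM scaling the rising side lost its call on chromosome 13 (adjusted p = 0.078), on chromosome 1 (0.051) and in the chromosome 9 pair with a gap of 72 bp (0.053).

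**Figure D5:**
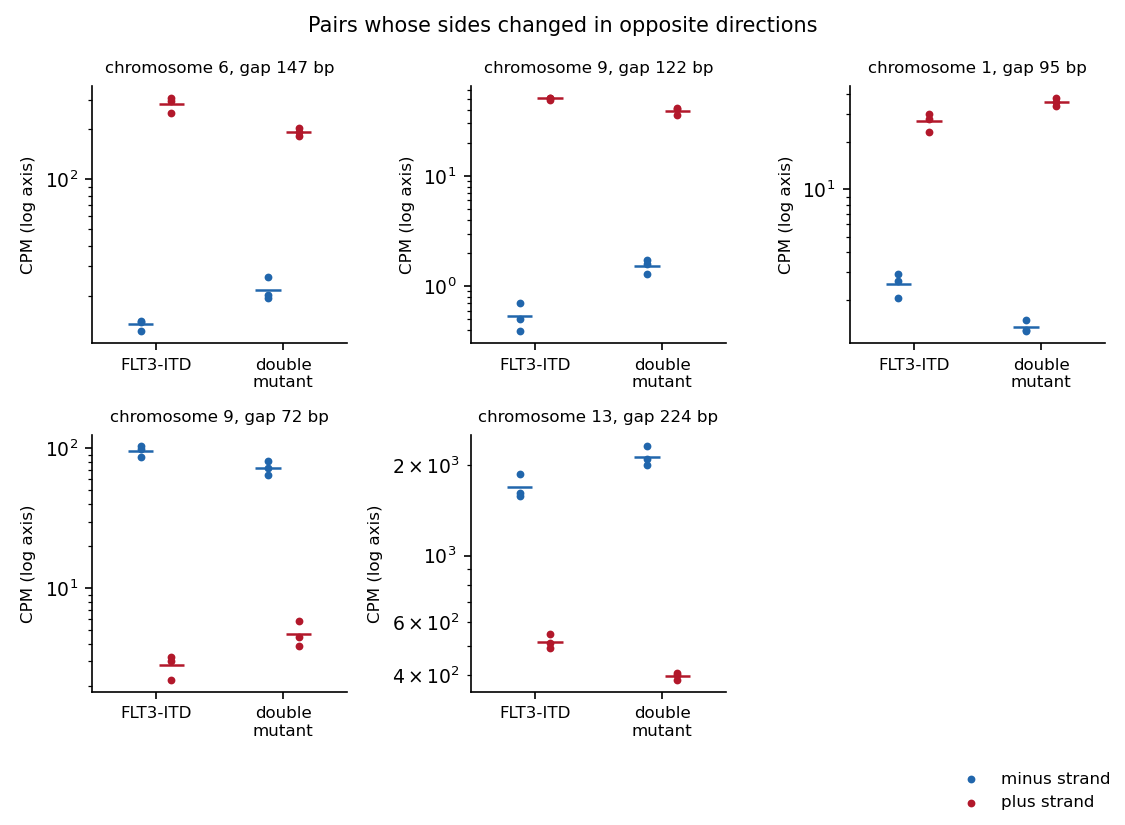
CPM on a log axis of the minus-strand and plus-strand sides in each of the 3 FLT3-ITD and 3 double-mutant libraries (points) with the mean of each group (bars), for the 5 pairs whose sides changed in opposite directions. In the chromosome 6 pair and both chromosome 9 pairs the points of the sides draw nearer in the double mutant, while in the chromosome 1 and chromosome 13 pairs they move apart.

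A side that passed next to one that did not is no evidence that the sides differed, so the balance of each pair was tested itself. Balance was log2(CPM + 1) of the plus side minus that of the minus side in each library, compared between the groups with limma over all 19142 adjacent pairs. It changed in 105 of the 1308 divergent pairs (8.03%), against 14.2% of all adjacent pairs. In 61 it shifted to the plus side and in 44 to the minus side (all adjacent pairs: 7.25% to the second promoter in coordinate and 6.93% to the first). The median size of these shifts was 0.93 and the smallest that passed was 0.64, with a median SE of 0.23 over all pairs, so that smaller shifts were mostly not detectable. The weaker side gained on the stronger in 62 of the 105 and the reverse held in 43. This scale understates changes of low sides, so equal folds on both sides can enter as a shift. In the chromosome 13 pair with a gap of 257 bp, the plus side was 1353 times the minus side in FLT3-ITD and 1355 times in the double mutant. Its balance still differed by -0.16. Sides that entered through 1 group alone were not left out, and nothing is read from the 62 and 43. The count was 54 and 51 without FLT3-ITD replicates 2 and 3, and 61 and 56 without double-mutant replicates 1 and 3.

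Of the 380 pairs with 1 changed side, 81 passed this test (21.3%). So did the 5 with opposite changes, 4 of the 69 with changes in the same direction and 15 of the 854 with neither side changed. The matching shares among all adjacent pairs are not given here, and nothing is read from these numbers. In the 380, the unchanged side had a difference of the same sign as the changed one in 283 pairs and of the opposite sign in 97. The changed side differed by a median of 0.63 (log2) and its partner by 0.15 in that direction. The changed side was chosen for its size, and these medians are a description.

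The named pairs that shifted to the minus side were those with the largest shift among the pairs with at least 5 CPM on each side in some group. On chromosome 1 (gap 267 bp), the minus side at 182780991 to 182780995 had 1.66, 1.36 and 2.19 CPM in FLT3-ITD and 11.4, 7.73 and 7.71 CPM in the double mutant. The plus side at 182781262 to 182781303 had 59.5, 53.5 and 54.7 CPM, and 46.1, 66.2 and 44.8 CPM. The groups were apart on the minus side and overlapped on the plus side, and the balance changed by -1.97 (SE 0.27, limma adjusted p = 0.00073), the largest shift of all pairs.

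On chromosome 4 (gap 280 bp), the shift reversed no order but widened a difference. The minus side at 43505923 to 43505937 had 41.0, 63.4 and 70.4 CPM in FLT3-ITD and 163, 143 and 178 CPM in the double mutant, while the plus side at 43506217 to 43506302 had means of 41.3 ± 2.1 and 45.9 ± 2.4 CPM (limma adjusted p = 0.35). The balance changed by -1.34 (SE 0.23, limma adjusted p = 0.0037), from a minus side 1.41 times the plus side to one 3.52 times as high. On chromosome 6 (gap 25 bp), the minus side at 29997923 to 29997954 had 2.24, 2.38 and 2.54 CPM, and 6.71, 6.08 and 4.75 CPM, beside a plus side at 29997979 to 29998049 with means of 15.5 ± 1.1 and 12.2 ± 1.4 CPM (adjusted p = 0.10, or 0.046 after TMM scaling). There the balance changed by -1.33 (SE 0.20, limma adjusted p = 0.0012).

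Shifts to the plus side included 2 loci whose levels varied widely within both groups. On chromosome 9, a pair with a gap of 0 bp had 2.15, 5.44 and 14.7 CPM in FLT3-ITD and 18.8, 23.5 and 57.3 CPM in the double mutant on its plus side at 35112851 to 35112875. Its minus side at 35112822 to 35112851 had 0.585, 3.06 and 9.83 CPM, and 0.671, 4.58 and 13.1 CPM. Neither side passed (adjusted p = 0.13 and 0.88), yet the sides varied together from library to library, and the balance changed by 1.85 (SE 0.36, limma adjusted p = 0.0064). In both groups the levels of both sides climbed with the replicate number. With a replicate block the plus side passed (limma adjusted p = 1.1e-05). A chromosome 2 pair (gap 56 bp) had the same pattern, with a minus side at 98506816 to 98506850 of 5.66 to 103 CPM, a plus side at 98506906 to 98506941 of 0.683 to 37.6 CPM, and a balance change of 1.27 (SE 0.34, adjusted p = 0.029). That call was lost without FLT3-ITD replicate 2 (adjusted p = 0.11) or 3 (0.062) or double-mutant replicate 1 (0.071). The plus side of this pair did not pass (limma adjusted p = 0.37), but did with a replicate block (0.0015).

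The third, on chromosome 13 (gap 192 bp), joined a strong plus side at 23627280 to 23627296, with means of 2305 ± 240.3 and 2032 ± 132 CPM (limma adjusted p = 0.27), to a weak minus side. That minus side, at 23627034 to 23627088, had 4.39, 5.10 and 6.32 CPM in FLT3-ITD and 1.85, 1.002 and 1.29 CPM in the double mutant (log2 change -1.40, SE 0.20, adjusted p = 0.00029). Its fall changed the balance by 1.22 (SE 0.25, adjusted p = 0.0092).

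Set beside other neighbours at 0 to 500 bp, divergent pairs had numbers of the same order, given here with no test. Among 5689 same-strand neighbours 515 had both promoters changed, 504 of them in the same direction (97.9%), and 6.94% changed in balance. Among 337 convergent neighbours the figures were 15, 14 (93.3%) and 6.82%, and among the divergent pairs 74, 69 (93.2%) and 8.03%. Neighbours further apart changed in balance more often in each arrangement. For divergent ones it was 13% of 262 over 500 and up to 5000 bp apart and 16.2% of 1786 beyond. The shares were 18% and 19.9% for same-strand neighbours and 12% and 18.7% for convergent ones. Beyond 5000 bp, 72.5% of divergent neighbours with both promoters changed moved in the same direction. For same-strand and convergent ones it was 77.1% and 77.8%. Within the 500 bp the share of divergent pairs with changed balance was 8.47%, 8.28%, 9.73%, 6.04% and 10.7% in the bins of 50 bp up to 250 bp. Beyond, in bins of 23 to 79 pairs, it was 6.33%, 1.85%, 4.88%, 8.7% and 4.17%. A trend with the gap was not tested.

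Chromosome 19 supplied many of the joint rises. It held 54 of the 1308 pairs but 20 of the 57 in which both sides rose, and 61 of its 108 member promoters rose while 0 fell. By the same limma test 363 of all 795 tested promoters of that chromosome rose and 21 fell, and the median log2 change was 0.50 for its members and 0.45 for all its tested promoters. Outside it, both sides rose in 37 pairs and fell in 12, and 18.6% of members changed, against 23.4% of all tested promoters outside it. Joint falls were most numerous on chromosome 13, which held 6 of the 12, and there 31 members fell and 5 rose, while 139 of all 708 tested promoters fell and 47 rose. On chromosome 9, 29 members fell and 6 rose, and of all 1136 tested promoters 304 fell and 37 rose. On chromosome 2, 39 members rose and 0 fell, and of all 1491 tested promoters 237 rose and 76 fell. On each of these chromosomes the members thus leaned the same way as all tested promoters.

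The share of tags at the pairs was slightly lower in the double mutant, through the most active pairs. Members took 19.1%, 19.5% and 19.9% of the tags in the FLT3-ITD libraries and 18.3%, 18.6% and 18.9% in the double-mutant libraries, so the groups did not overlap (exact permutation test, two-sided, p = 0.10, the smallest that 3 against 3 allows). The 26 pairs with a side of at least 1000 CPM took 11.3% ± 0.36 of the tags in FLT3-ITD and 9.92% ± 0.28 in the double mutant. The other 1282 pairs went the other way, with 8.20% ± 0.14 and 8.66% ± 0.17, and again the groups did not overlap (exact permutation test, two-sided, p = 0.10 for each). The median fold between the sides, over pairs with tags on both, was 5.59, 5.69 and 5.21 in FLT3-ITD and 4.88, 5.07 and 4.89 in the double mutant (exact permutation test, two-sided, p = 0.10). These pairs include sides that entered the tested set through 1 group alone, 51 through the double mutant and 6 through FLT3-ITD. The rule itself thus bears on the fold in each group, and nothing is read from its difference. FLT3-ITD replicate 2, the shallowest library, had the widest median fold, and the part of depth in this difference was not tested.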

How the data were processed

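The authors deposited CPM, 1 value per peak and library over 158966 peaks, and the values of each library sum to 1000000. The submitters' processing notes name TopHat2 2.0.14, edgeR 3.24.3 and the builds hg19 and mm9, without roles, and the sources used here do not describe peak calling. They leave unstated if starts count from 0 or 1. In each library 100% of values were whole multiples of 1 step (tolerance 0.01), so tags were recovered for the alternatives. Totals were 5884258 to 13977941 tags, and 3 tags, the floor for a count of 0, were worth 0.215 to 0.510 CPM (counting error only).

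Promoters with at least 1 CPM in 3 or more libraries were sorted, and adjacent minus-plus neighbours 0 to 500 bp apart taken as pairs. limma 3.58.1 (R 4.3.3, robust, with a variance trend for promoters and none for balance) was run on log2(CPM + 1) with group as the only term and Benjamini-Hochberg adjustment over all features. edgeR 4.0.16 and DESeq2 1.42.0 on tags served as alternatives. Named pairs followed a rule: the 4 most active; the 2 most even and 3 most uneven; the 4 largest joint rises and falls; those with opposite changes; the 3 largest balance shifts each way among the rest; and those nearest the gap limit. Members, lists and tests were chosen with earlier results of these data known. On simulated tags with the means and depths of these libraries, the promoter test recovered 67% of 100 promoters changed 2-fold and 99% of 100 changed 4-fold among 19162, with 4 false calls. The balance test over 19142 pairs recovered 26.1% of 199 one-sided 2-fold changes and 95.9% of 195 4-fold ones, with 10 false calls. The spread between simulated libraries was a single set value and was not taken from these data. Changed promoters were drawn only from those above 2 CPM, and far fewer changed than were called here. These rates therefore do not describe low sides or loci that vary widely within a group.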

Additional observations from a re-analysis of the deposited data

How the results depend on the processing

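Of 1107 refits of the named sides and balances, 982 kept direction and side of the threshold, 99 lost a call, 14 gained one and 12 turned in sign, 0 of these with a call in either fit. The 12 came with a library left out, over ranges of -0.0414 to 0.0489 and -0.0756 to 0.2928 for the balance of the most active pair and the chromosome 3 pair with the gap of 222 bp, -0.4303 to 1.1106 and -0.6100 to 1.1940 for the minus sides of the chromosome 9 pair with the gap of 0 bp and the chromosome 2 pair with that of 56 bp, and -0.1443 to 0.4336 (minus side) and -0.0131 to 0.1586 (balance) for the pairs with gaps of 499 and 498 bp. Restricting the test to a mean of at least 5 CPM left 373 pairs, with 184 changed members (130 rose, 54 fell), 28 pairs changed in the same direction, 3 in opposite directions and 44 with changed balance, in place of 528, 367, 161, 69, 5 and 105. DESeq2 gave 205 risen members, 35 pairs in the same direction and 2 in opposite ones. Opposite pairs numbered 3 with TMM, RLE or no filter on low values and 2 with edgeR; the cause was not tested. Leaving out single libraries gave 311 to 624 changed members, 219 to 376 risen and 92 to 248 fallen, 30 to 81 pairs in the same direction, 1 to 10 in opposite ones and 51 to 103 with changed balance, and a difference in the share of tags of -1.114 to -0.705 percentage points. Without the 26 pairs with a side of at least 1000 CPM, an alternative chosen after seeing the data, this difference reversed to 0.461. With a replicate block, 1 pair changed in opposite directions, 63 in the same direction and 75 in balance. The plus sides of the chromosome 9 pair with the gap of 0 bp and the chromosome 2 pair with that of 56 bp then passed (limma adjusted p = 1.1e-05 and 0.0015, against 0.13 and 0.37). The deviations from the group means of libraries with equal numbers had correlations of -0.005, 0.019 and 0.193. FLT3-ITD replicate 1 had its highest correlation with another number (0.151), while replicates 2 and 3 had theirs with the same number. The main fits did not take the numbers to pair libraries, and whether they do was not settled. The median gap was 98 bp with a limit of 250 bp, 126 bp with 1000 bp, and 125 or 117 bp with a minimum of 2 or 0.5 CPM, where the median fold was 4.35 or 6.05; these follow from the definitions. A variance trend in the balance fit, chosen after seeing the data, gave 119 pairs, and a pseudocount of 0.5 gave 81. Depth limits the weaker sides, since 1 tag was worth up to 0.170 CPM.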
